A study of Mus musculus with 6 samples.

Results

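The proteasome genes of mouse lung endothelial cells were compared between control cells and HIF-2α knockout cells. HIF-2α, the product of Epas1, is a transcription factor that accumulates when oxygen is low. Members were the genes whose symbol in the array annotation begins with Psma, Psmb, Psmc, Psmd or Psme and that a probe set names alone, with the probe set of the highest mean over the 6 arrays standing for each gene. This gave 44 of 18193 genes so named, made up of 14 core subunits, 20 regulatory genes, 3 immune subunits, 3 activators, 2 tissue-restricted subunits and 2 genes that share the symbol but not the complex. Psme2 is not among them, because its probe set also names Psme2b.

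The cells came from lungs of mice and had been purified repeatedly with endothelial markers. Knockout cells carried VE-Cadherin-Cre, a recombinase driven by a promoter of endothelial cells, and floxed HIF-2α alleles on both copies. The labels describe the 3 controls in different ways, as VE-Cadherin-Cre with a floxed and a wild-type copy, as floxed on both copies, and as wild type. Whether the controls carried Cre is therefore not settled. Both groups, of 3 arrays each, were kept at 0.5% oxygen for 16 h, so nothing here compares low with normal oxygen. No label says that arrays of 1 group are separate animals or cultures, and the p-values therefore measure the spread between arrays, whose number, 3 a group, limits precision. The bright probe set of the targeted gene did not pass the test: Epas1 read 9611, 9590 and 9444 in controls and 8920, 9397 and 9859 in knockouts (-0.025 ± 0.041, limma adjusted p = 0.753). Whether its probes lie in the deleted part is not given in the sources used here, so it does not check the labels, and "knockout" here means the arrays so labelled.

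The proteasome is the large protease that degrades proteins tagged with ubiquitin. Its barrel-shaped core has outer rings of alpha subunits and inner rings of beta subunits, of which Psmb5, Psmb6 and Psmb7 carry the constitutive catalytic sites. A regulatory particle on the end of the barrel recognises ubiquitin chains with its lid and base and unfolds the substrate with a ring of ATPases. Interferon induces Psmb8, Psmb9 and Psmb10, which replace the constitutive catalytic subunits and change the peptides offered on MHC class I. The proteasome is also how hydroxylated HIF-α proteins are removed when oxygen is present.

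Promoter sequence is shown for the immune subunits, of which 1 was measured above the floor and 2 were not, and for the core and regulatory subunits whose signal passed the test. Each line holds the 250 bases before the RefSeq start of the gene, 5′ to 3′ on the strand of the gene, in build GRCm38.p6. Psmc2 has 2 RefSeq starts, and the window of the second is shown, because that of the first (chr5:21785025-21785274) held no match. Capitals mark matches, on either strand, to TGANNNNGC (the core of the antioxidant response element), TTCNNNGAA (the GAS element of interferon signalling), GAAA, any 2 bases and GAAA (the interferon-stimulated response element) and ACGTG (the core that HIF factors bind, added after the data were seen).
Psmb10, chr8:105938393-105938642, minus strand: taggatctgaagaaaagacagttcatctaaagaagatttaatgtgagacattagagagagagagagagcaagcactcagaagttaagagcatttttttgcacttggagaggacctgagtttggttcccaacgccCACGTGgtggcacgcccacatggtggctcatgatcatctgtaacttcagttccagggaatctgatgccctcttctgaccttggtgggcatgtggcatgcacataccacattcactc
Psmb8, chr17:34197945-34198194, plus strand: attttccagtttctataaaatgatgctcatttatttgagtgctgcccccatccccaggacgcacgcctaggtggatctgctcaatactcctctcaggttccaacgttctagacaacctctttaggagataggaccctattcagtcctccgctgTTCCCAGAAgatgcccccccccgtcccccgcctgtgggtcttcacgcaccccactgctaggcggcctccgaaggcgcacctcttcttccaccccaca
Psmb9, chr17:34187331-34187580, minus strand: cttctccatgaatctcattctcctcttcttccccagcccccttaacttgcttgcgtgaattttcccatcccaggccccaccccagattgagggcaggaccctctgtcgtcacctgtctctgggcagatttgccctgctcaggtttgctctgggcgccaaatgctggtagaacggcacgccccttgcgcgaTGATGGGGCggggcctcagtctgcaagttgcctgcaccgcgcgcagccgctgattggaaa
Psma4, chr9:54950609-54950858, plus strand: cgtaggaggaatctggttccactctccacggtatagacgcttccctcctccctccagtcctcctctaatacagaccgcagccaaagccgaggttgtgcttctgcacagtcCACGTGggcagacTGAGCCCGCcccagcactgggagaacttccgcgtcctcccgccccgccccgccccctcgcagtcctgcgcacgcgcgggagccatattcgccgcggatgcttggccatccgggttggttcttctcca
Psmc2, chr5:21786497-21786746, plus strand: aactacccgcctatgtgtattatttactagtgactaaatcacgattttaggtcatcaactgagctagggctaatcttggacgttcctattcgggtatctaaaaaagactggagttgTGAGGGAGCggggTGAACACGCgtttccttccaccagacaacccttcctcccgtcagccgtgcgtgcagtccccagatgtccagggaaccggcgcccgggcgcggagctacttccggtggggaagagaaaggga

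A match is a description of letters and not a binding site. In Psmb10 and in Psma4 the capitals CACGTG are ACGTG read on both strands, so the matches overlap. Psma4, Psmb9 and Psmc2 each held at least 1 antioxidant match, and Psmb8 held the GAS match. Among the 35 subunit genes with a window, 13 (37.1%) held TGANNNNGC, against 38.7% of 27018 genes in the table. ACGTG was found in 8 (22.9%) against 18.5%, the interferon-stimulated response element in 3 (8.57%) against 3.46%, and the GAS element in 1 (2.86%) against 8.13%.

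Signals are the deposited intensities, on a linear scale. Tests used log2(intensity + 16), and differences are knockout minus control on that scale with their SE. Of the 44 genes, 42 passed the filter on dim probe sets. Psmb8 and Psmb9 passed it but lay under a signal of 16, taken as the floor, on all 6 arrays, as did Psma8 and Psmb11, which did not pass. That left 38 subunits, counting the activators and the regulatory particle's chaperones, above the floor.

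Most subunits differed little between the groups. Psmb10 and Psma4 were higher and Psmc2 lower in the knockout arrays, and the other 35 did not pass (limma, adjusted p under 0.05 over all 12279 genes tested). These 3 of 38 (7.89%) compare with 13.7% of all genes that passed in either direction, 8.64% higher and 5.07% lower, and with 16.9% of the 9921 tested genes above the floor on at least 1 array. The difference stayed within 0.5 of 0 for 36 of the 38 subunits (94.7%). That share was 72.1% over all genes and 65.5% over those above the floor. Neither background was matched for brightness, and the 38 subunits were far brighter than the median probe set (5.52 to 5.66). The exceptions were Psmb10, on the higher side, and Psme4, on the lower side. In 12 of the 38 (31.6%) every knockout array lay on 1 side of all controls, against 36.2% of all genes and 43.1% of those above the floor. An unadjusted p under 0.05 was found for 10 (26.3%), against 32.4% and 39.8%.

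By part of the complex, the median difference was 0.12 for the 14 core subunits and 0.045 for the 20 regulatory genes, beside 0.0071 over all genes tested and 0.055 over those above the floor. Of the core subunits 13 had a difference above 0, and 1, Psma1, below. Of the regulatory genes 12 were above 0 and 8 below. Over all genes tested 62.0% had a difference above 0, and 55.4% of those above the floor. These counts include genes that did not pass, whose sign is not a result by itself.

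**Figure D1:**
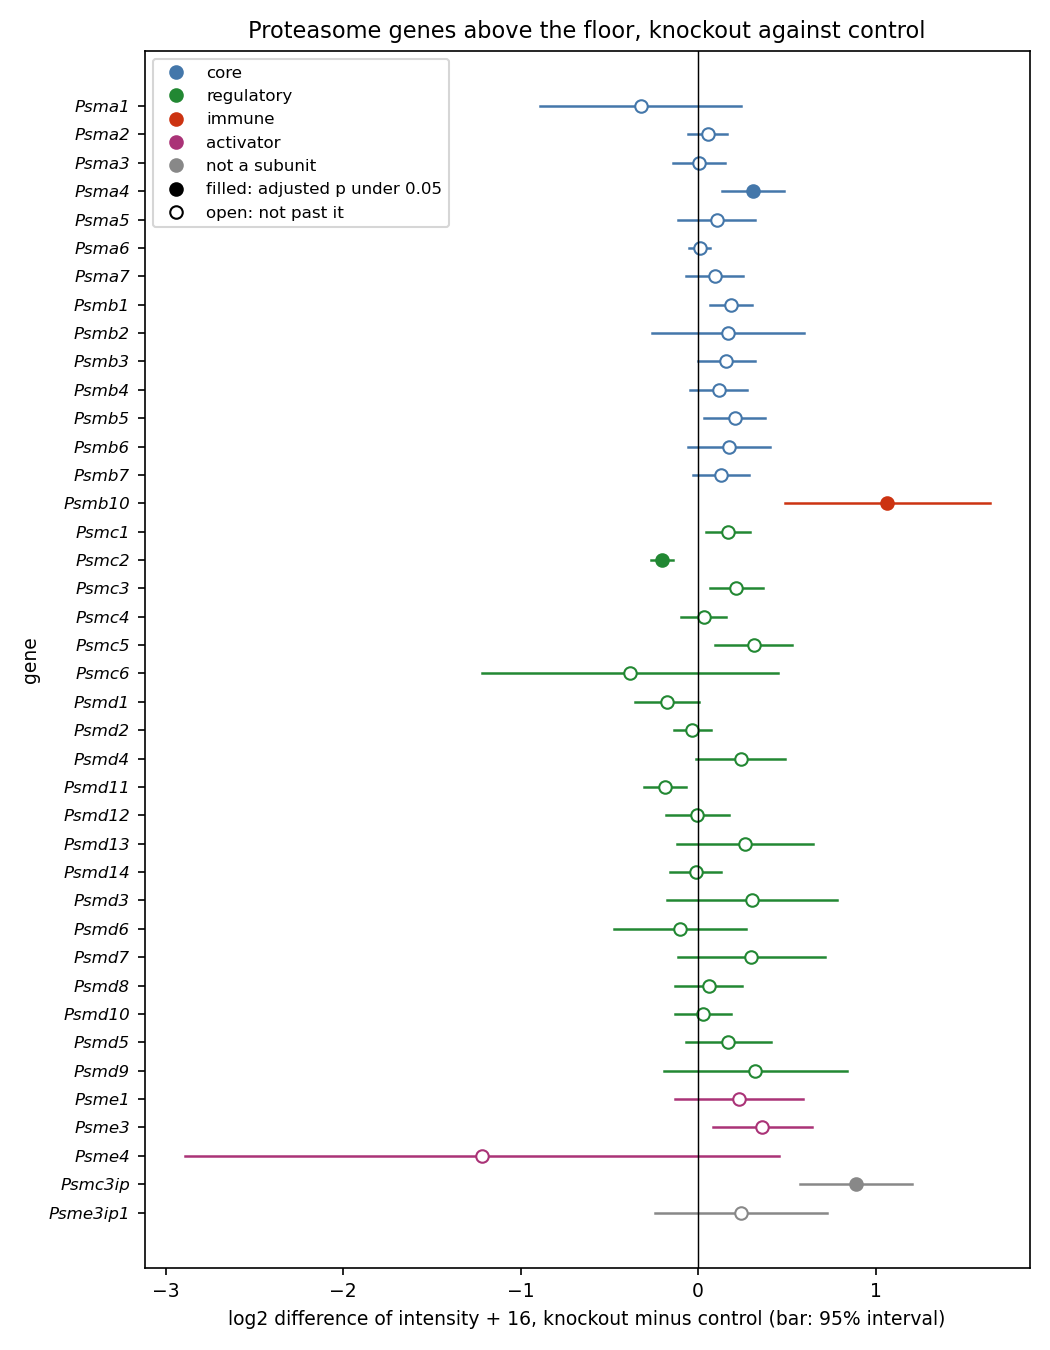
Log2 difference of intensity + 16, knockout minus control, for the 38 subunits and 2 other genes above the floor, coloured by class. Points are the fitted difference over 3 arrays a group, bars its 95% interval, and filled points passed limma's adjusted p of 0.05. Most points lie within 0.5 of 0, with Psmb10 and Psmc3ip to the right and Psme4, with the widest interval, to the left.

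Of the immune subunits, Psmb10, which replaces Psmb7, was the only member above the floor. Its signal was 1038, 1292 and 971 in controls 1 to 3 and 2582, 2726 and 1739 in knockouts 1 to 3. Every knockout array was above every control array, with knockout 3 the lowest of its group and control 2 the highest of the other. The means were 1100 ± 169 and 2349 ± 533 (SD, n = 3 each), a ratio of 2.13, and the log2 difference was 1.07 ± 0.22 (limma adjusted p = 0.0446). The call rested on most of the arrays: it ended when control 1, 2 or 3 or knockout 1 or 2 was left out (adjusted p from 0.0713 to 0.161) and held without knockout 3. Fitted with the level of the spike-in controls, bacterial transcripts in each sample, as a covariate, the difference was 0.54 (limma adjusted p = 0.108). That level was itself higher in knockouts 1 and 2 than in any control, so covariate and group cannot be cleanly separated. Over all 23 alternatives the adjusted p ran from 0.000133 to 0.161.

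Psmb8, which replaces Psmb5, read 5.869, 5.856 and 6.002 in controls and 6.036, 6.249 and 5.945 in knockouts, and a further probe set of it between 4.70 and 5.50. Psmb9, which replaces Psmb6, read 4.71, 4.73 and 4.75 in controls and 4.83, 8.64 and 4.74 in knockouts. All of these are at the floor, so Psmb8 and Psmb9 were not detectable in either group, and no fold can be given. The thymus subunit Psmb11 and the testis subunit Psma8 were at the floor as well, between 4.13 and 4.59.

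The constitutive catalytic subunits were bright on every array and did not pass. Psmb5, which cuts after hydrophobic residues, read 15993, 16283 and 15951 in controls and 18881, 19891 and 16949 in knockouts. The groups did not overlap, but the difference of 0.21 ± 0.06 had adjusted p = 0.108 in limma, with a 95% interval of 0.04 to 0.38. Psmb6, which cuts after acidic residues, read 18989, 20978 and 18070 in controls and 21972, 23631 and 19994 in knockouts, with control 2 above knockout 3. Psmb7, which cuts after basic residues, read 20890, 19116 and 18949 in controls and 20617, 22845 and 20962 in knockouts, where control 1 lay above knockout 1. Their differences were 0.18 ± 0.09 and 0.13 ± 0.06 (limma adjusted p = 0.248 and 0.229). With the spike-in covariate Psmb6 turned to -0.038 and Psmb5 was 0.072.

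**Figure D2:**
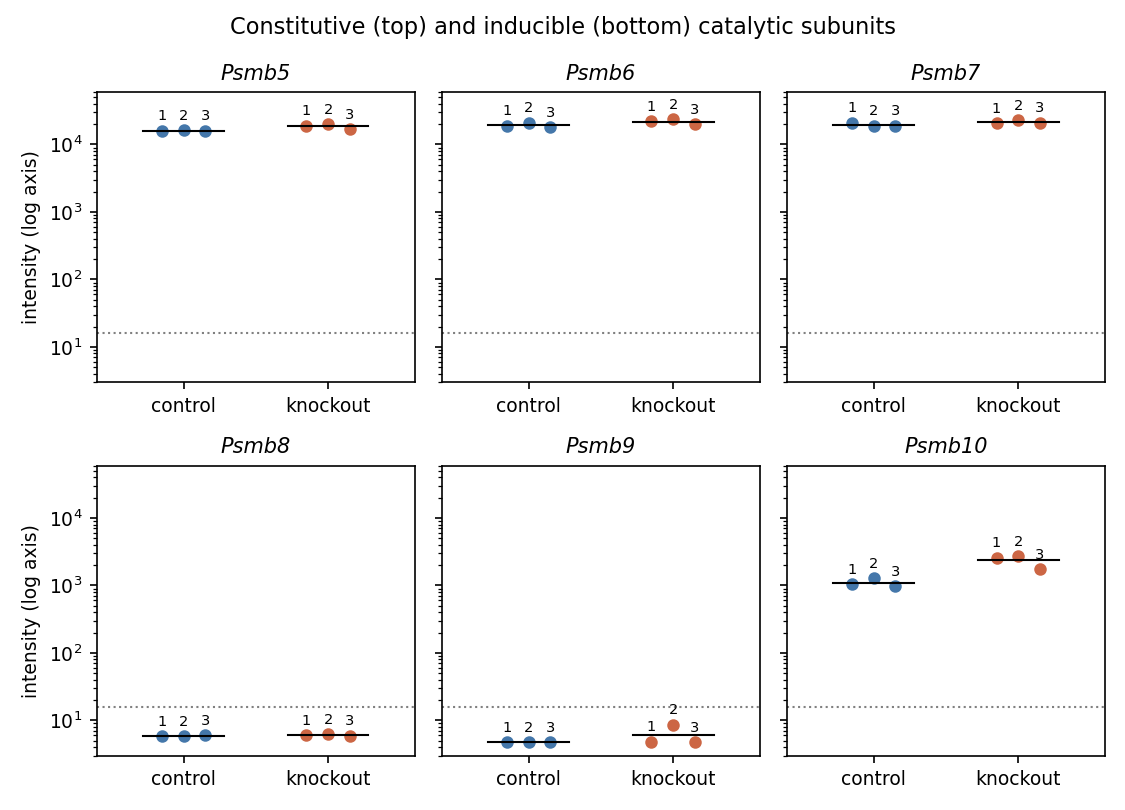
Intensity on a log axis of the constitutive catalytic subunits (top) and the inducible ones (bottom) in each array, numbered by replicate, with a line at the mean of each group of 3. The dotted line is the floor signal of 16. Psmb8 and Psmb9 lie below it on all 6 arrays, and the knockout arrays of Psmb10 lie above its controls.

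The immune subunits belong with a wider set of genes that prepare peptides for MHC class I. Of 11 such genes that passed the filter, 0 passed the test with limma, against 13.7% of all genes, and 4 (36.4%) had an unadjusted p under 0.05, near the 32.4% of all genes. Tap1, a subunit of the peptide transporter, read 136, 149 and 78.8 in controls and 308, 347 and 218 in knockouts. Its groups did not overlap, and its difference was 1.18 ± 0.29 (limma adjusted p = 0.0641). The MHC light chain B2m differed by -0.077 ± 0.024 (limma adjusted p = 0.106). Nlrc5, an activator of these genes, was at the floor.

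Of 23 interferon response genes named on the array, 12 passed the filter, and of those Irf1 and Irgm1 were higher and 10 did not pass (16.7% called, against 13.7% of all genes). Under the floor on all arrays lay 6 of these 10, Cxcl10 and Mx1 among them. All genes of the list that did not pass the filter, such as Ifit1, Rsad2 and Usp18, lay there too. Irf1, a transcription factor that interferon induces, read 161, 217 and 169 in controls and 596, 536 and 336 in knockouts, a difference of 1.32 ± 0.25 (limma adjusted p = 0.0389). Irgm1, an interferon-induced GTPase, was higher by 0.89 ± 0.10 (limma adjusted p = 0.0128). Irf1 lost its call when any array but knockout 3 was left out, and Irgm1 when control 3 or knockout 1 was. Over the alternatives the limma adjusted p ran from 0.000122 to 0.147 for Irf1 and from 0.00014 to 0.0658 for Irgm1.

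Leukocytes carry immune subunits, so their markers were read beside Psmb10. Of 13 leukocyte markers 9, among them Ptprc, were at the floor on all arrays. The summed signal of the list ran from 5479 to 5925 in controls and from 1882 to 2783 in knockouts. The 4 markers above the floor did not move together. Cd68 and Cd53, which gave most of the sum in controls, fell by 2.01 ± 0.17 and 1.75 ± 0.28 (limma adjusted p = 0.00769 and 0.0263). Cd68 lost its call without control 1 or 3, and Cd53 without any 1 of the controls or knockout 1. Coro1a was above its controls on every knockout array (344 to 523 against 565 to 1318). Laptm5 was above the floor in knockout 2 alone, at 62.6, where Psmb10 also read highest. Neither Coro1a nor Laptm5 passed. Over all genes with a difference above 0, knockout 2 was the array farthest from the controls in 77.6%. The part of leukocytes in the Psmb10 signal was not tested. All 10 epithelial markers and 12 of 13 fibroblast and mural markers were at the floor. The other, the smooth muscle gene Tagln, read 44.0, 74.9 and 32.1 in controls and 207, 167 and 70.2 in knockouts (1.25 ± 0.46, limma adjusted p = 0.144), and its part was not tested either. All 16 endothelial markers, of which Egfl7 and Emcn were the brightest, were above the floor on at least 1 array. Their sums were 205322 to 221199 in controls and 175077 to 193249 in knockouts. Of the 16, 5 passed lower (Pecam1, Flt1, Tek, Tie1 and Erg), against 5.07% of all genes. Robo4 went the other way, with 10629 to 11215 in controls and 12080 to 14125 in knockouts. It did not pass (0.28 ± 0.07, limma adjusted p = 0.0612). In bulk RNA, fewer cells of a type and less RNA per cell cannot be told apart.

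In the core, the alpha ring held the subunit that passed. Psma4 read 9134, 10296 and 9103 in controls and 12042, 11139 and 12123 in knockouts. The groups did not overlap, and the means of 9511 ± 680 and 11768 ± 546 (SD, n = 3) gave a difference of 0.31 ± 0.07 (limma adjusted p = 0.0489). The call lay at the threshold: it ended when any single array other than control 2 was left out, and adjusted p ran from 0.000204 to 0.209 over the alternatives. Psma4 lies on chromosome 9, of whose 681 tested genes 166 passed higher and 14 lower, with a median difference of 0.21, and it was the only member there. Whether the position has a part in its difference was not tested.

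The other alpha subunits ran from -0.32 to 0.10. Psma6 was the steadiest, between 22809 and 23804 on all 6 arrays. Psma2 and Psma7 ran from 13161 to 14596 and from 16461 to 19242, and Psma3 from 14828 to 17056. Psma5 ran from 12110 to 12447 on 5 arrays and read 14721 in knockout 2. Psma1 had the lowest difference and the widest spread, with 8983, 7252 and 9084 in controls and 6735, 5216 and 8609 in knockouts, where knockout 3 reached the level of the controls.

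All 7 constitutive beta subunits had differences above 0, from 0.12 to 0.21, and none passed. The share above 0 was 62.0% over all genes tested and 55.4% over those above the floor. Psmb1, a structural beta subunit, came closest, at 0.19 ± 0.05 (limma adjusted p = 0.0641). It read 17794, 19190 and 18164 in controls and 20807, 21811 and 20102 in knockouts, without overlap, and with the covariate its difference was 0.073. Psmb4 did not overlap either (16833 to 17255 against 17285 to 20048), and Psmb2 and Psmb3 did (8631 to 11689 against 9353 to 11992, and 20042 to 22161 against 21811 to 24212). Further probe sets of Psmb1, Psmb3 and Psmb4 gave differences from 0.22 to 0.30, and none of them passed when probe sets were tested on their own.

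The array means of the beta ring ran in nearly the same order as the spike-in controls. Taken as log2 values centred over the 6 arrays, the 7 beta subunits averaged -0.11, -0.003 and -0.13 in controls 1 to 3 and 0.10, 0.17 and -0.02 in knockouts 1 to 3. Control 2 was above knockout 3, so the groups overlapped. The spike-in level, centred in the same way, was -0.21, 0.01 and -0.17 in controls and 0.13, 0.24 and -0.01 in knockouts. The lid mean showed the same high control 2 and low knockout 3. Not all its members did: Psmd6, Psmd12 and Psmd14 read highest of all arrays in knockout 3. Over all genes 87.0% of the within-group variance lay on 1 axis, which was not compared with the order of the beta ring. Deviations of control 2 from its group mean correlated with those of knockout 2 at 0.844 and of knockout 3 at -0.891. Among subunits above 0, knockout 3 was nearest the controls in 75% and knockout 2 farthest in 78.6%. Over all genes above 0 these shares were 81.4% and 77.6%. Control 2 was nearest the knockouts in 85.7% of these subunits and 57.7% of these genes. The alpha ring and ATPase means ran differently, with knockout 3 the highest of the 6 arrays and knockout 2 among the lowest. Psma1 and Psmc6 had the widest spread in these groups, reading 5216 and 7835 in knockout 2 and 8609 and 16465 in knockout 3. Psma3, Psma4 and Psma6 were highest in knockout 3, but Psma2, Psma5, Psma7, Psmc1, Psmc3, Psmc4 and Psmc5 were highest in knockout 2. The order of the means was thus not shared by the members. With the covariate the median difference of the core was 0.017 and that of the regulatory genes -0.030. Because the covariate ran partly with the group, these values are not corrected differences. Whether the amount of RNA that went into each sample has a part in these differences was not tested.

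**Figure D3:**
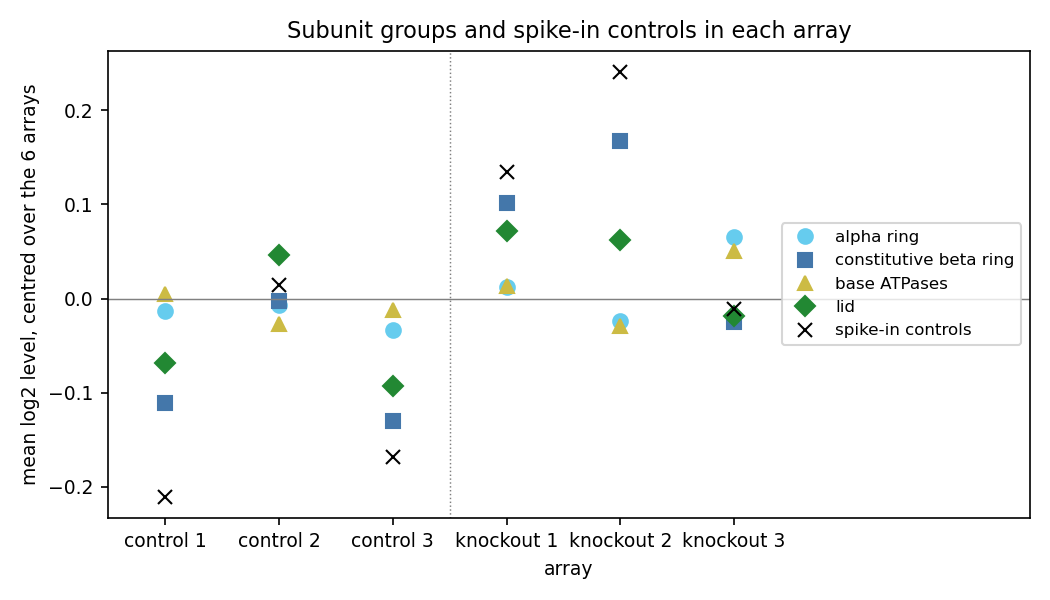
Mean log2 level of 4 subunit groups and of the spike-in controls in each array, centred over the 6 arrays. The beta ring (squares) and the lid (diamonds) are low in controls 1 and 3 and high in knockouts 1 and 2. So are the spike-in controls (crosses). The alpha ring and ATPase means are highest in knockout 3, but most of their single genes are not.

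In the regulatory particle, the ATPase Psmc2 was the gene that passed. It read 12107, 12224 and 12470 in controls and 10539, 10896 and 10497 in knockouts, so that every knockout array was below every control. The means of 12267 ± 185 and 10644 ± 219 (SD, n = 3) gave a difference of -0.20 ± 0.02 (limma adjusted p = 0.0145). This probe set has the suffix x, the maker's mark for probes that can also read other sequences. A second probe set read 10861, 11695 and 10610 against 9861, 10143 and 9751, also without overlap, with a difference of -0.16 ± 0.04 (adjusted p = 0.111 in limma over probe sets). The call ended without control 1, control 3 or knockout 1 (adjusted p of 0.0726, 0.0722 and 0.0725, over a range of 0.000121 to 0.107) and held with the spike-in covariate (-0.23, adjusted p = 0.0412).

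Other ATPases pointed both ways. Psmc1, Psmc3 and Psmc5 did not overlap and were above the controls on every knockout array, by 0.17 ± 0.05, 0.22 ± 0.06 and 0.31 ± 0.08 (limma adjusted p = 0.0837, 0.0761 and 0.0739). With the spike-in covariate these were 0.068, 0.075 and 0.13. Psmc3 read 23256, 25003 and 22884 in controls and 28029, 28751 and 25865 in knockouts. Psmc4 differed by 0.030. Psmc6 read 17207, 12591 and 16660 in controls and 12577, 7835 and 16465 in knockouts, a difference of -0.38 ± 0.32 (limma adjusted p = 0.466), with knockout 3 near controls 1 and 3. In its 2 dimmer probe sets knockout 2 was again the lowest array and knockout 3 the highest knockout. Of the 6 ATPases, which form 1 ring, 3 had every knockout array higher and 1 every knockout array lower. That is 66.7% without overlap, against 36.2% of all genes and 43.1% of those above the floor. Of these only Psmc2 passed, so opposite changes within the ring are not shown.

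Among the remaining base and lid subunits none passed. The lid subunit Psmd11 was closest, with 8743, 9560 and 9249 in controls and 8375, 7895 and 7913 in knockouts, without overlap, a difference of -0.19 ± 0.05 (limma adjusted p = 0.0617). Psmd11 had 4 further probe sets above the floor, with differences from -0.13 to 0.08, and none passed. Psmd1, a scaffold of the base, also had every knockout array below the controls (9506 to 10182 against 7952 to 9138). Psmd4, a ubiquitin receptor, read 12340, 13783 and 11497 in controls and 14844, 15956 and 13577 in knockouts, where control 2 lay above knockout 3.

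Psmd2, Psmd12 and the deubiquitinase Psmd14 had differences between -0.032 and -0.0061. Psmd3, Psmd7 and Psmd13 had differences of 0.30, 0.30 and 0.26 with SE of 0.18, 0.16 and 0.15, and their groups overlapped. Psmd6 and Psmd8 overlapped too, from 10754 to 15012 and from 15431 to 18026 over all arrays. Of the chaperones that build the base, Psmd9 differed by 0.32 ± 0.20, and a dim probe set of it by 1.24 ± 0.41 (adjusted p = 0.152 in limma over probe sets). Psmd5 and Psmd10 ran from 4815 to 6264 and from 1053 to 1190. Over the 8 lid subunits 4 differences were above 0 and 4 below. The share above 0 was 62.0% over all genes tested and 55.4% over those above the floor.

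**Figure D4:**
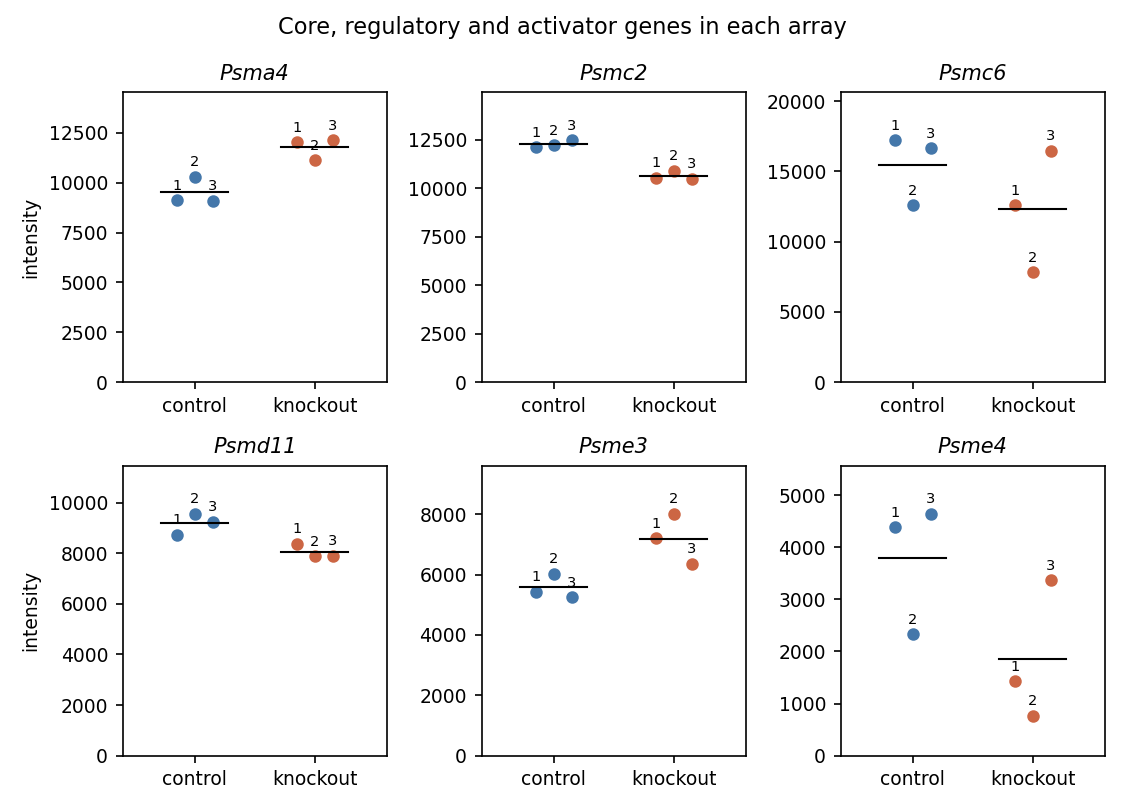
Intensity in each array, numbered by replicate, of a core subunit (Psma4), 3 regulatory subunits (Psmc2, Psmc6, Psmd11) and 2 activators (Psme3, Psme4), with a line at each group's mean of 3. The groups do not overlap for Psma4, Psmc2, Psmd11 and Psme3. For Psmc6 and Psme4 knockout 2 is lowest and knockout 3 lies among the controls.

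Of the activators, which open the core without ATP, none passed. Psme1, the alpha subunit of the interferon-inducible activator PA28, read 7111, 8298 and 6435 in controls and 8919, 9342 and 7380 in knockouts (0.23 ± 0.14, limma adjusted p = 0.32). Psme3, the nuclear activator PA28 gamma, read 5433, 6028 and 5257 in controls and 7202, 8009 and 6351 in knockouts. Its groups did not overlap, and its difference was 0.36 ± 0.11 (limma adjusted p = 0.0914). A second probe set of Psme3 gave 0.53 ± 0.20. With the spike-in covariate the difference of the first was 0.10.

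Psme4, which encodes the nuclear activator PA200, had the largest difference of any subunit and the largest spread. It read 4385, 2335 and 4642 in controls and 1435, 763 and 3373 in knockouts, so that knockout 3 was above control 2. The difference was -1.22 ± 0.64 (limma adjusted p = 0.268), with a 95% interval of -2.89 to 0.46. Its other 2 bright probe sets gave -1.30 ± 0.65 and -1.53 ± 0.72 with the same order of arrays. The value leaned on single arrays: it was -0.71 without knockout 2 and -1.77 without knockout 3. With the spike-in covariate the sign turned, to 0.37. Psma1, Psmc6 and Psme4, singled out after their values were seen, shared that order, high in controls 1 and 3 and lowest in knockout 2. They were not alone in it. Psma3, Psmd1, Psmd6 and Psmd14 were also higher in controls 1 and 3 than in control 2, and lowest in knockout 2. Among differences below 0, knockout 2 was farthest from the controls in 8 of 10 subunits above the floor and 49.9% of all genes. With the covariate Psma1, Psmc6 and Psme4 turned positive (0.21, 0.38 and 0.37). Because the covariate ran partly with the group, these are not corrected signs.

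The 2 genes that bear the symbol without being subunits are given for completeness. Psmc3ip, a meiotic recombination factor named for binding Psmc3, read 1300, 1547 and 1218 in controls and 2293, 2783 and 2487 in knockouts, without overlap. Its difference was 0.89 ± 0.12 (limma adjusted p = 0.0191), and its second probe set gave 0.96 ± 0.17 (adjusted p = 0.046 in limma over probe sets). The call ended without control 1, control 3 or knockout 1, and adjusted p ran from 0.000164 to 0.0927. Psme3ip1, a partner of PA28 gamma, read 2494, 3162 and 2222 in controls and 3060, 3623 and 2631 in knockouts, with overlap, and differed by 0.24 ± 0.18 (limma adjusted p = 0.427).

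Among the factors around the proteasome, 3 changes held under every alternative run. The share of all genes that held in the same way is not given here, so 3 has no background beside it. Of 16 assembly and associated factors, 1 was higher, 3 lower and 12 did not pass, with a median of 0.12. That is 25.0% called, against 13.7% of all genes. Psmg2, a chaperone that pairs alpha subunits, read 2686, 2737 and 2634 in controls and 3860, 4237 and 3926 in knockouts, a difference of 0.57 ± 0.04 (limma adjusted p = 0.00601). Psmg3, a further chaperone of the alpha ring, did not overlap either but did not pass (0.62 ± 0.17, limma adjusted p = 0.0827). Zfand5, which activates the proteasome, read 14500, 13812 and 14492 in controls and 8253, 8157 and 8853 in knockouts, so that it fell by 0.76 ± 0.04 (limma adjusted p = 0.00321). Zfand2a, a heat-shock and arsenite-inducible partner of the regulatory particle, fell by 0.57 ± 0.05 (limma adjusted p = 0.00767). Psmg2, Zfand5 and Zfand2a passed in all 23 alternatives, including each array left out. Ube3c, a ligase bound to the proteasome, fell by 0.36 ± 0.08 (limma adjusted p = 0.047). Its call ended when any array but knockout 3 was left out.

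Of 11 regulators of proteasome genes that passed the filter, 1 was higher and 1 lower (18.2% called, against 13.7% of all genes). Nfe2l2, the factor that binds antioxidant response elements, fell by 0.25 ± 0.04 (limma adjusted p = 0.0329). Keap1, the adaptor that marks it for degradation, rose from 2193 ± 292 to 3875 ± 483, by 0.82 ± 0.14 (limma adjusted p = 0.0309). Nfe2l1, the factor that raises proteasome genes when the proteasome is blocked, differed by -0.053 ± 0.145 (limma adjusted p = 0.872). Nfe2l2 lost its call whichever array was dropped, and Keap1 without control 1, control 3, knockout 1 or knockout 2.

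Of 11 ubiquitin genes, shuttles and cofactors of the unfoldase p97, 2 were higher and 9 did not pass, again 18.2% called. They were Ubqln4, a shuttle for ubiquitinated proteins (0.67 ± 0.12, limma adjusted p = 0.0321), and Faf1, a cofactor of p97 (0.31 ± 0.05, limma adjusted p = 0.031). Ubqln4 lost its call when any array but knockout 3 was left out, and Faf1 without control 1, control 3, knockout 1 or knockout 2. Of 9 genes that hydroxylate HIF-α or lead it to the proteasome, 0 passed with limma, against 13.7% of all genes, and 3 (33.3%) had an unadjusted p under 0.05, near the share of 32.4% over all genes. Their differences ran from -0.30 to 0.20. Vhl, which recognises hydroxylated HIF-α, read 10345, 10600 and 9961 in controls and 10258, 11307 and 10202 in knockouts.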

How the data were processed

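Per the labels' protocols, amplified RNA of each of the 6 samples was read on 1 expression array. The authors deposited linear intensity values, 1 for each probe set on each array. MAS5 and GCRMA are listed, per the submitters' processing notes, with no role. From the values, quantiles were nearly equal between arrays (medians 5.52 to 5.66), so nothing was normalized further. Such background correction pulls dim probe sets to 1 floor.

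The table had 45101 probe sets, 64 of them array controls. The platform annotation named 1 gene for 34945 of the others, several for 932 and none for 9160. The dimmest 40% were left out (27022 kept), and the brightest probe set stood for each of 12279 genes. Groups were compared with limma 3.58.1 (R 4.3.3) on log2(intensity + 16), two-sided, with Benjamini-Hochberg adjustment over all genes. The fit was tested on simulated data with independent noise for each gene and array. In the data 87.0% of the within-group variance lay on 1 axis, so that test does not check false calls under such shared variation. Alternatives were other offsets, filters, scalings and eBayes settings, array weights, the replicate number as a block, a spike-in covariate (5 bioB and bioC probe sets) and arrays left out. Figures used matplotlib 3.10.9.

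Members and lists were chosen with earlier results of these data known. Values in every array are given for the catalytic and activator genes, members past the threshold and, per class, the 2 with the smallest p, and other members are named as examples. Of each pathway list up to 6 called genes with the smallest p are named, and of each marker list above the floor the 2 brightest. Further genes of these lists were named after their values were seen. Promoters are from RefSeq (GRCm38.p6).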

Additional observations from a re-analysis of the deposited data

How the results depend on the processing

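The number of subunits called moved with the processing. Of the 2 higher subunits, 0 passed with an offset of 64, with no filter, with the dimmest 20% left out, with robust eBayes, with the spike-in covariate, with probe sets tested on their own or with controls 1 and 3 averaged. A single subunit (1) passed with the dimmest 60% left out, with scaling to the median of other genes or with probe set means. With the replicate number as a block 9 were higher and 1 lower, Psmb10 and Psmc2 among them but not Psma4, and under quantile normalization Psmb1 stood in place of Psma4. With array weights, whose estimation stopped short of its tolerance, 22 were higher and 7 lower, and without control 2 and knockout 3 together the counts were 19 and 2. With 1 array left out, 0 to 6 were higher and 0 to 1 lower. The subunits lower numbered 0 with the dimmest 60% left out and with controls 1 and 3 averaged. Of all genes tested, 1684 passed, and 893 with no filter, 8533 with array weights, 2993 with the block, 193 with controls 1 and 3 averaged, 4628 without control 2 and knockout 3 together, and 203 to 3005 with 1 array left out. The SD over genes between controls 1 and 3 was 0.137 in log2 units, and 0.307 to 0.678 for the other pairs within a group.

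The median difference of core subunits was 0.017 with the spike-in covariate, 0.17 without control 2 and knockout 3 together, and 0.071 to 0.16 with 1 array left out. That of regulatory genes was -0.030, 0.13, and 0.040 to 0.10 in the same order. With the covariate, signs turned for Psme1 (-0.093), Psme4 (0.37), Psma1 (0.21), Psmb6 (-0.038), Psmb9 (-0.034), Psme3ip1 (-0.20), Psmd9 (-0.17), Psmc6 (0.38), Psmd3 (-0.13) and Psmd7 (-0.10), and with scaling to the median of other genes for Psmb8 (-0.020). None of these had passed. The covariate ran partly with the group and its fits are given without SE, so the signs under it are not corrected ones. Psmb8 and Psmb9 are at the floor, where a sign has no meaning, and that scaling shifts all genes alike. Of the 36 genes followed over the alternatives no other turned its sign, and the remaining genes named, Psma2 and Psmb2 among them, were not followed singly. The cause was not tested. Deviations of arrays with the same replicate number correlated at -0.464, 0.844 and 0.804, and control 1 correlated best with knockout 3 (0.761), so the numbers were not taken as pairing the samples. Signal over background limits Psmb8, Psmb9, Psma8 and Psmb11, which can be read only as not detectable.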
